A study of Mus musculus with 8 samples.

Results

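The genes here encode the invariant parts of the T cell receptor complex, its coreceptors, the first kinases of its signal and the glycoprotein Thy-1. They were Cd3d, Cd3e, Cd3g, Cd247, Cd4, Cd8a, Cd8b1, Lck, Zap70 and Thy1, a list of 10 named genes out of 19937 genes that had a probe with exactly 1 gene symbol. Such a probe was found for 9 of them, each with a single probe, and Lck was not analysed here. All 9 were bright enough to test, with mean log2 levels at or above 5.93, the 25th percentile of all genes, which left 14953 genes tested. The samples were whole lungs of mice anaesthetised with chloral hydrate (500 mg/kg). They received either mepenzolate, an antagonist of muscarinic acetylcholine receptors, in phosphate-buffered saline through the trachea or the vehicle, and RNA was taken 7 h or 25 h later. This gave 4 groups (vehicle 7 h, mepenzolate 7 h, vehicle 25 h and mepenzolate 25 h) of 2 Affymetrix arrays each, 8 arrays in all. The dose of mepenzolate, the strain and the age of the mice are not given in the labels, nor do they say whether any mouse was a model of chronic obstructive lung disease, although the series title names such a disease model. The labels do not state that a group's arrays were from different mice. The p-values here therefore reflect only how far these particular arrays scatter, and some of that scatter could be technical. Lung is a mixture of cells, and in such bulk RNA more T cells and more RNA per T cell cannot be told apart.

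The T cell receptor itself is a pair of clonally rearranged chains with almost no cytoplasmic part. Its signal runs through the CD3 chains gamma (Cd3g), delta (Cd3d) and epsilon (Cd3e) and the zeta chain (Cd247), whose tails carry tyrosine motifs called ITAMs. The coreceptors CD4 and CD8, which bind major histocompatibility complex class II and class I molecules, bring the kinase LCK to the receptor. LCK phosphorylates the ITAMs and ZAP-70 docks there and passes the signal on to the adaptors LAT and SLP-76. In the healthy lung these genes report the resident and circulating T cells, but several are shared with other cells: the zeta chain and ZAP-70 are used by natural killer cells, CD4 and CD8 alpha by subsets of dendritic cells, and Thy-1 by fibroblasts.

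Cd3g and Cd3d lie head to head in the RefSeq table of GRCm38.p6, with 1355 bases between their annotated starts, and Cd3e is the next gene on the far side of Cd3d. Of the 36 pairs among the 9 genes, Cd3d and Cd3g followed each other most closely over the 8 arrays (Pearson r = 0.89, a description, since the arrays share treatments and times). Cd3d and Cd3e had r = 0.86 and Cd3e and Cd3g 0.84, beside 0.88 for Cd3e and Cd8a, which lie on chromosomes 9 and 6. The neighbours Cd8a and Cd8b1 had r = 0.56. Any part of gene position in these values was not tested. The 250 bases before the starts of Cd3g, Cd3d and Cd3e are shown because they are neighbours. Those of Cd247 are shown because it was the 1 gene of the 9 that stood lower at 25 h. Sequences are from RefSeq, 5′ to 3′ on the strand of the gene, and capitals mark matches on either strand to an E box (CAGNTG), an ETS core (GGAAGT), a RUNX core (TGTGGT) or a TATA box (TATAAA). No matches overlapped.
Cd3g, chr9:44980432-44980681, minus strand: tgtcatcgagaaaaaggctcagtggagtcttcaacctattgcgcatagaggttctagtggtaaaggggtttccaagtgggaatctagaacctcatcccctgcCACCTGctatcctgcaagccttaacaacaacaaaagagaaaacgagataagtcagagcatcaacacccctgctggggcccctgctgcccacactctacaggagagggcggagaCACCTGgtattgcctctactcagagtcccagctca
Cd3d, chr9:44981536-44981785, plus strand: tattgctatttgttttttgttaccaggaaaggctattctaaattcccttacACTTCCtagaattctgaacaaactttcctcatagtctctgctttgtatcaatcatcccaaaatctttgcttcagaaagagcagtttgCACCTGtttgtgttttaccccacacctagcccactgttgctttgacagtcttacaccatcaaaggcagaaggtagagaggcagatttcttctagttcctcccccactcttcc
Cd3e, chr9:45009612-45009861, minus strand: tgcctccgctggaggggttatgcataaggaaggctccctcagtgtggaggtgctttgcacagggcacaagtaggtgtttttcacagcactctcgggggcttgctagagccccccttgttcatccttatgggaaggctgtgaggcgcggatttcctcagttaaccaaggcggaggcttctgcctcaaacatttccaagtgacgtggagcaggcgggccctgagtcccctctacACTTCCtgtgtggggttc
Cd247, chr1:165788431-165788680, plus strand: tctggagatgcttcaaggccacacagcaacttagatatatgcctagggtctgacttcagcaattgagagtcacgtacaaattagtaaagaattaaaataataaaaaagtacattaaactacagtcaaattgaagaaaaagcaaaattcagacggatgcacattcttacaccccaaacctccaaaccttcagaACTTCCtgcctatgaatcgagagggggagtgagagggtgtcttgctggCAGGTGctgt
The Cd3g window held 2 E boxes and no other match, and the Cd3d window 1 E box and 1 ETS core. Cd3e held 1 ETS core only, and Cd247 held 1 of each. Among 32841 promoter windows of this length 44.8% held an E box, 19.7% an ETS core, 14% a RUNX core and 12.4% a TATA box. None of the 4 windows held a RUNX core or a TATA box by these letters. A match is a string of letters and says nothing of a factor's binding.

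Facts of the arrays that touch the results are these. The deposited values were log2 levels after RMA, a method that equalises the arrays and joins the probes of a transcript, and replicate arrays correlated at 0.988 to 0.993 across probes. The second mepenzolate array at 7 h stood apart in liver and airway genes, with albumin (Alb) at 8.93 against 6.24 on its partner and lactoferrin (Ltf) at 6.42 against 7.96. H2-Ea stood at 11.78 and 11.35 on the second vehicle arrays of 7 h and 25 h, against 6.33 to 7.08 on the other 6.

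At 25 h the mRNAs of the CD3 gamma, delta and epsilon chains were more abundant after mepenzolate than after vehicle. The difference was largest for Cd3g, at 0.57 log2 units (a ratio of 1.48), and went down through Cd3d at 0.31 to Cd3e at 0.19. Among the coreceptors Cd8b1 and Cd4 were higher without overlap of the arrays, as 14.2% of all genes were, and Cd8a overlapped, at 0.08 ± 0.12. Cd247 was the 1 gene of the 9 that was lower. Not one of the 9 passed limma after Benjamini-Hochberg adjustment, and neither did any of the 14953 genes (0%).

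Cd3g, the gamma chain, read 8.44 and 8.35 on the vehicle arrays at 7 h, 8.31 and 8.04 on the mepenzolate arrays at 7 h, 8.40 and 8.43 on the vehicle arrays at 25 h, and 8.92 and 9.03 on the mepenzolate arrays at 25 h. Both mepenzolate arrays at 25 h were above each of the other 6, which lay within 8.04 to 8.44. Errors of differences are moderated standard errors, from 2 arrays per group. The difference at 25 h was 0.57 ± 0.10, with a limma unadjusted p = 0.000581 and an adjusted p = 0.979. It ranked 6 among all genes tested by that p. With any 1 of the 4 arrays at 25 h left out it lay between 0.51 and 0.62.

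Cd3d, the delta chain, was also highest in mepenzolate lungs at 25 h and lowest in mepenzolate lungs at 7 h by group mean. Its levels were 6.39 and 6.24 in vehicle lungs at 7 h, 6.16 and 6.23 with mepenzolate at 7 h, 6.20 and 6.31 in vehicle lungs at 25 h, and 6.50 and 6.64 with mepenzolate at 25 h. Again the mepenzolate arrays at 25 h were the 2 highest of the 8. The difference at 25 h was 0.31 ± 0.09 (limma unadjusted p = 0.00953, adjusted p = 0.979), and between 0.24 and 0.38 with an array left out.

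Cd3e, the epsilon chain that pairs with both gamma and delta, differed less. It read 8.43 and 8.30 in vehicle lungs at 7 h, 8.20 and 8.36 with mepenzolate at 7 h, 8.51 and 8.55 in vehicle lungs at 25 h, and 8.65 and 8.79 with mepenzolate at 25 h. All 4 arrays at 25 h were above all 4 at 7 h, and the mepenzolate arrays were the higher ones at 25 h. The difference of 0.19 ± 0.09 at 25 h (limma unadjusted p = 0.0780, adjusted p = 0.979) was 0.26 when the first and 0.12 when the second mepenzolate array was dropped.

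Cd247, the zeta chain, read 6.82 and 7.17 in vehicle lungs at 7 h, 6.86 and 6.98 with mepenzolate at 7 h, 7.25 and 7.23 in vehicle lungs at 25 h, and 7.09 and 7.09 with mepenzolate at 25 h. At 25 h its groups did not overlap, in the direction opposite to the other CD3 chains. That difference was -0.15 ± 0.12 (limma unadjusted p = 0.244, adjusted p = 0.979), which is near the size of its error.

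**Figure D1:**
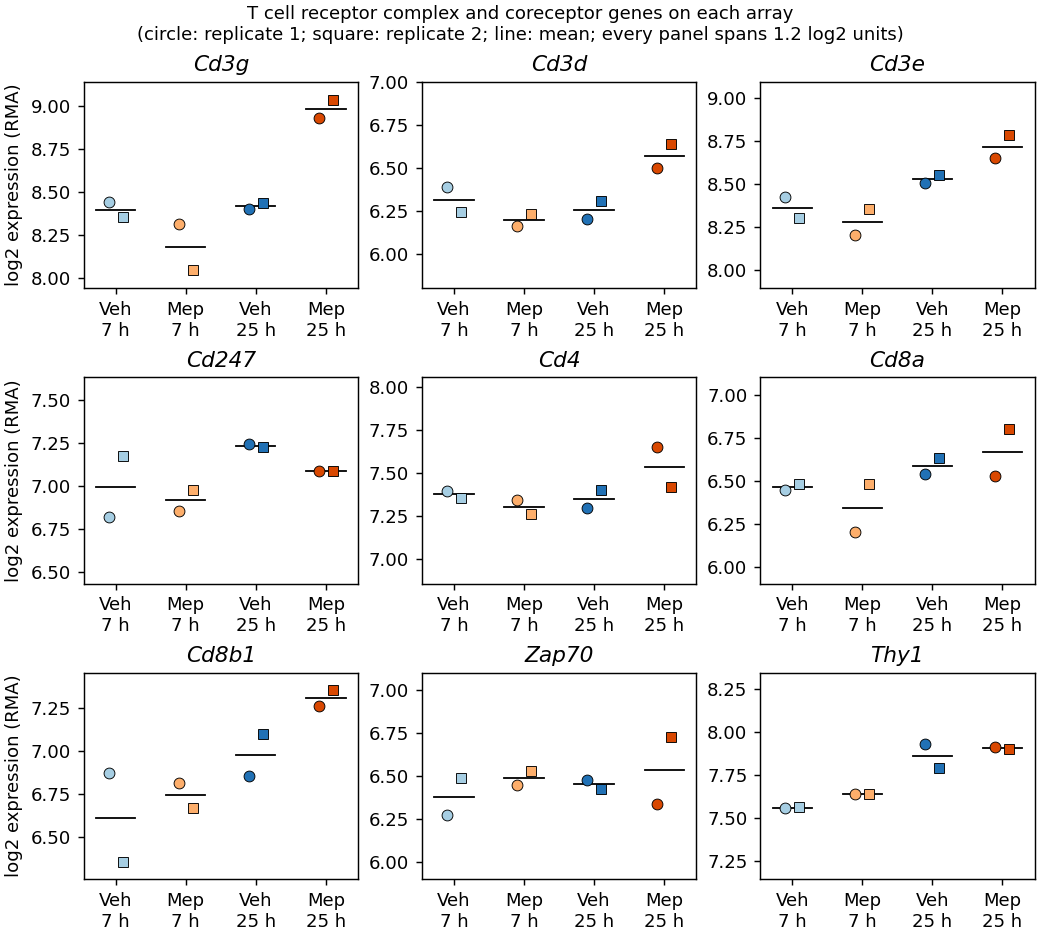
Log2 expression of the 9 genes on each of the 8 arrays, by treatment (vehicle, Veh; mepenzolate, Mep) and time; circles are replicate 1, squares replicate 2, lines the mean of 2 arrays, and each panel spans the same height. The mepenzolate arrays at 25 h (dark orange) are the 2 highest for Cd3g, Cd3d, Cd3e, Cd4 and Cd8b1, while for Cd247 they lie below the vehicle arrays at 25 h.

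The coreceptor genes were followed next. Cd4 read 7.40 and 7.35 with vehicle at 7 h, 7.34 and 7.26 with mepenzolate at 7 h, 7.30 and 7.40 with vehicle at 25 h, and 7.65 and 7.42 with mepenzolate at 25 h. The groups at 25 h were separated by only the gap between 7.40 and 7.42, and the difference of 0.19 ± 0.10 was 0.07 without the first mepenzolate array and 0.30 without the second. Cd8b1, the CD8 beta chain, which is found on conventional CD8 T cells and is not typical of dendritic cells, stood at 6.86 and 7.10 with vehicle, and at 7.26 and 7.35 with mepenzolate, at 25 h. At 7 h it was at 6.87 and 6.36 in vehicle lungs, the widest replicate gap of the 9 genes there (0.51), and at 6.81 and 6.67 with mepenzolate. Its difference at 25 h was 0.33 ± 0.16, with a limma unadjusted p = 0.0787 and an adjusted p = 0.979. Without the second vehicle array at 25 h the difference was 0.45, and without the first it was 0.21.

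Cd8a, the CD8 alpha chain, overlapped at 25 h, with 6.54 and 6.63 after vehicle and 6.53 and 6.80 after mepenzolate. The 7 h arrays read 6.45 and 6.48 after vehicle, 6.20 and 6.48 after mepenzolate. Its difference at 25 h was 0.08 ± 0.12 and turned to -0.05 without the second mepenzolate array. Cd8a and Cd8b1 are neighbours on the chromosome, and their differences at 25 h were 0.08 and 0.33.

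Zap70, the kinase that docks on phosphorylated ITAMs, overlapped between the groups at both times. At 25 h it read 6.48 and 6.43 with vehicle against 6.34 and 6.73 with mepenzolate, so the 2 mepenzolate arrays were the lowest and the highest of these 4. At 7 h it read 6.27 and 6.49 with vehicle, and 6.45 and 6.53 with mepenzolate. The difference of 0.08 ± 0.13 turned to -0.11 without the second mepenzolate array. Thy1, the surface glycoprotein of T cells and fibroblasts, read 7.93 and 7.79 with vehicle and 7.92 and 7.91 with mepenzolate at 25 h, a difference of 0.05 ± 0.08, which was -0.02 without the second vehicle array. At 7 h Thy1 read 7.56 and 7.57 in vehicle lungs and 7.64 on both mepenzolate arrays. Fibroblast genes, among them Col1a1 and Pdgfra, had a median difference of 0.02 at 25 h over 10 genes.

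Counted together at 25 h, 8 of the 9 genes stood above 0, where 41.3% of all genes tested did. The groups did not overlap for 5 genes that were higher (14.2% of all genes) and for 1 that was lower (22.4%). An unadjusted limma p under 0.05 was reached by 2 genes, Cd3g and Cd3d, both higher, against 1.54% of all genes. Without the second mepenzolate array 6 of the 9 stood above 0, and without the first vehicle array 1 gene reached that p. The median difference of the 9 was 0.19, beside -0.02 over all genes tested. The sum of the 9 linear signals at 25 h lay between 1626 and 1662 units after vehicle and between 1883 and 1993 after mepenzolate. These ranges did not meet. Bright genes weigh most in such a sum, and Cd3g, which had the largest difference, was also the brightest of the 9 (mean log2 level 8.49).

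At 7 h Cd3g, Cd3d and Cd3e stood at -0.22, -0.12 and -0.08 log2 units, mepenzolate minus vehicle. Of the 9 genes 6 were lower, a share near the 56.4% of all genes, and the median was -0.08 against -0.01. No gene passed limma after adjustment (0% of all genes), and none of the 9 reached an unadjusted p under 0.05, against 2.39% of all genes. The arrays did not overlap for Cd3g, Cd3d and Cd4, which were lower (15.5% of all genes), or for Thy1, which was higher (8.26%). Cd3g had the largest of these, at -0.22 ± 0.10 (a ratio of 0.86, limma unadjusted p = 0.0678, adjusted p = 1.00). This rested on the second mepenzolate array, the one that stood apart in liver and airway genes: the difference was -0.08 without it and -0.35 without the first. Cd3d stood at -0.12 ± 0.09, Cd3e at -0.08 ± 0.09, Cd247 at -0.08 ± 0.12, Cd4 at -0.08 ± 0.10 and Cd8a at -0.12 ± 0.12. Cd8b1, Zap70 and Thy1 stood at 0.13 ± 0.16, 0.11 ± 0.13 and 0.08 ± 0.08. Single arrays moved most of these values. Without the second mepenzolate array Cd3e was at -0.16, Cd247 at -0.14, Cd4 at -0.03, Cd8a at -0.26, Cd8b1 at 0.20 and Zap70 at 0.07. Without the first mepenzolate array Cd3e was at -0.0077, Cd247 at -0.02, Cd4 at -0.12, Cd8a at 0.01 and Cd8b1 at 0.06. Without the second vehicle array, 1 of the 2 with high H2-Ea, Cd3d was at -0.19, Cd3e at -0.15, Cd247 at 0.10, Cd8b1 at -0.13 and Zap70 at 0.22. Without the first vehicle array Cd3d was at -0.04, Cd3e at -0.02, Cd247 at -0.26, Cd8b1 at 0.39 and Zap70 at 0.0048.

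**Figure D2:**
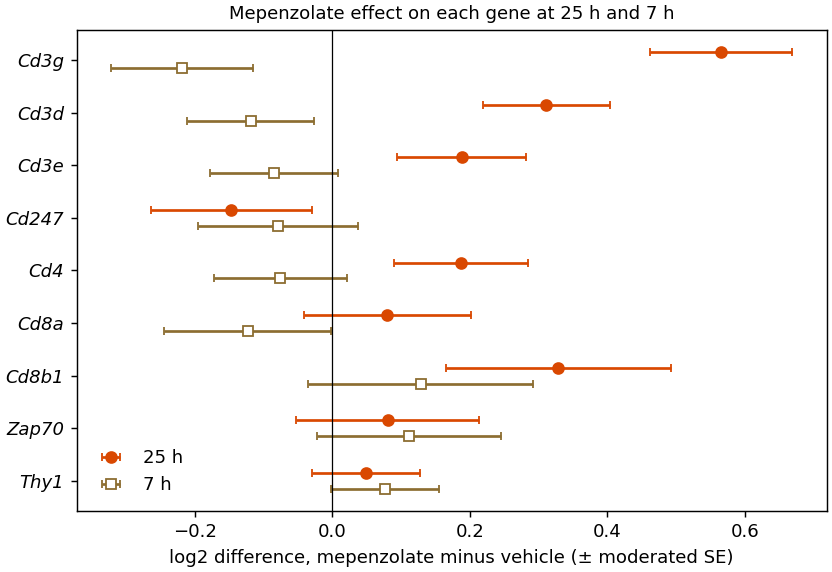
Log2 difference, mepenzolate minus vehicle, for each of the 9 genes at 25 h (filled circles) and 7 h (open squares), with bars of 1 moderated standard error from 2 arrays per group. Cd3g lies at 0.57 at 25 h and at -0.22 at 7 h, while Zap70 and Thy1 lie close to each other at both times.

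Whether the effect of mepenzolate differed between the times was tested as an interaction in the same fit. For Cd3g the effect at 25 h exceeded that at 7 h by 0.78 ± 0.15 (limma unadjusted p = 0.000662, adjusted p = 1.00), rank 4 among all genes by that p, and for Cd3d by 0.43 ± 0.13 (unadjusted p = 0.0107, adjusted p = 1.00). With single arrays left out these stood at 0.65 to 0.92 and 0.36 to 0.50. Cd3e (0.27 ± 0.13), Cd4 (0.26 ± 0.14) and Cd8a (0.20 ± 0.17) had the same sign. So did Cd8b1 (0.20 ± 0.23), which lay closer to 0 than its error. Cd247 (-0.07 ± 0.16), Zap70 (-0.03 ± 0.19) and Thy1 (-0.03 ± 0.11) also lay closer to 0 than their errors. No gene of the 14953 passed adjustment in this test (0%), and 1.42% had an unadjusted p under 0.05 with a positive sign.

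Lungs at 25 h were also set against lungs at 7 h over both treatments, 4 arrays against 4. All 9 genes were higher at 25 h, where 50.7% of all genes were. In limma 7 of the 9 had an unadjusted p under 0.05 and a positive sign, against 4.03% of all genes, and 4 to 7 did with an array left out, 4 of them without the first mepenzolate array at 7 h or the second vehicle array at 25 h. Of the 9, 0 passed adjustment, against 0.221% of all genes. The median difference was 0.22 over the 9 and 0.0014 over all genes. Cd3g had the smallest adjusted p, 0.0964, at 0.41 ± 0.07, followed by Thy1 (0.29 ± 0.06, adjusted p = 0.119), Cd3e (0.30 ± 0.07, adjusted p = 0.147) and Cd8b1 (0.46 ± 0.12, adjusted p = 0.196). Every array at 25 h was above every array at 7 h for Cd3e, Cd8a and Thy1, 3 of 9 genes, against 2.55% of all genes. Cd3g passed in limma under a stricter brightness filter (adjusted p = 0.0486) and with an intensity trend and robust estimation (0.0362). Without the first mepenzolate array at 7 h its difference was 0.48. The value of 0.41 for Cd3g joins 0.80 in mepenzolate lungs and 0.02 in vehicle lungs. Whether the treatments differ in this was tested as the interaction above, in which no gene passed adjustment. Time after dosing and time of day cannot be told apart here. The clock genes Arntl (1.49) and Per2 (-1.11) were among the few that passed between the times in mepenzolate lungs. Any link of clock genes to the T cell genes was not tested.

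The time difference was then read within each treatment, as a description set beside the interaction. In mepenzolate lungs Cd3g was 0.80 ± 0.10 higher at 25 h than at 7 h, and in vehicle lungs 0.02 ± 0.10. The same pair of values was 0.37 ± 0.09 and -0.06 ± 0.09 for Cd3d and 0.44 ± 0.09 and 0.17 ± 0.09 for Cd3e. Thy1 was 0.27 ± 0.08 higher at 25 h in mepenzolate lungs and 0.30 ± 0.08 higher in vehicle lungs, and Cd247 stood at 0.17 ± 0.12 and 0.24 ± 0.12. In mepenzolate lungs all 9 genes were higher at 25 h (47.9% of all genes) and 7 had an unadjusted limma p under 0.05 (3.28%). In vehicle lungs 7 of 9 were higher (49.9%) and 1, Thy1, had an unadjusted p under 0.05 (2.71%). The test of the difference between the treatments is the interaction given above.

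**Figure D3:**
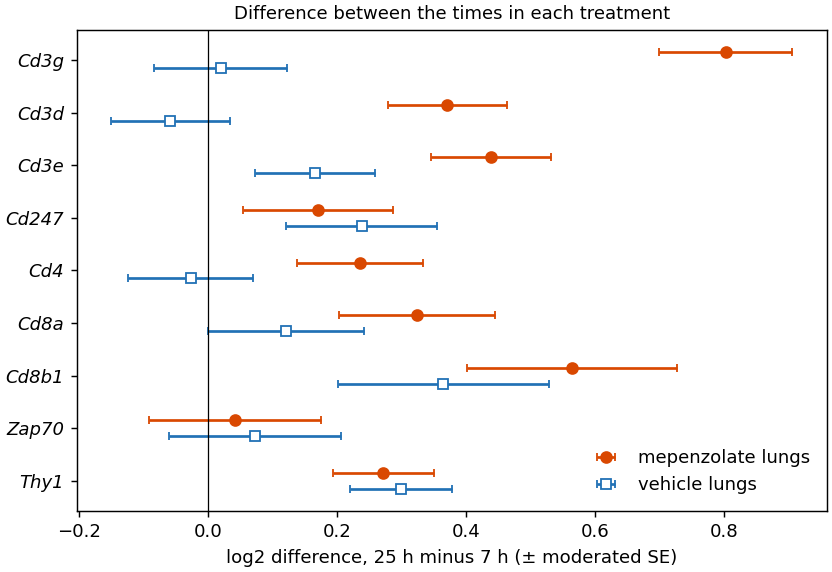
Log2 difference, 25 h minus 7 h, for each gene in mepenzolate lungs (filled circles) and vehicle lungs (open squares), with bars of 1 moderated standard error from 2 arrays per group. Cd3g is at 0.80 in mepenzolate and 0.02 in vehicle lungs, and Thy1 at 0.27 and 0.30.

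Replicate arrays were also set against each other. On the first mepenzolate array at 25 h 2 of the 9 genes were higher than on the second, where 56.3% of all genes were, and on the first vehicle array 3 of 9, where 48.6% were. At 7 h 4 of 9 were higher on the first mepenzolate array (61.8% of all genes) and 5 of 9 on the first vehicle array (51.2%). The median gap between replicates was between 0.09 and 0.14 log2 units in the 4 groups, and between 0.07 and 0.14 over all genes. Over the 8 arrays the 36 pairs of genes had a median Pearson r of 0.57, and 35 were above 0.

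The wider receptor pathway was read from companion lists. Of 24 signalling genes tested 18 stood higher at 25 h (41.3% of all genes), and the median was 0.09. The arrays did not overlap for 10 higher genes (14.2% of all genes) and 2 lower ones (22.4%). None passed limma after adjustment, and an unadjusted p under 0.05 was reached by 3 higher genes (1.54% of all genes) and 1 lower (2.47%). The leading ones were Themis, a regulator of receptor signal strength in T cells, at 0.41 ± 0.10, and Lat, the adaptor that ZAP-70 phosphorylates, at 0.32 ± 0.10. Lat read 7.57 and 7.53 with vehicle against 7.86 and 7.87 with mepenzolate. Lcp2, which encodes SLP-76, stood at -0.00099 ± 0.11, the LCK relative Fyn at 0.11 ± 0.08, the adhesion receptor Cd2 at 0.18 ± 0.12, the costimulator Cd28 at 0.14 ± 0.08 and the inhibitory receptor Cd5 at -0.02 ± 0.08. At 7 h 15 of the 24 were lower, a share near the 56.4% of all genes. An unadjusted limma p under 0.05 was reached by 1 of them (2.39% of all genes). Themis stood at -0.27 ± 0.10 and Lcp2 at -0.22 ± 0.11.

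Genes of a list named for restraint of the receptor signal had a median of 0.01 at 25 h, with 9 of 17 higher (41.3% of all genes). Not all of them only restrain it, since Ptprc also promotes the signal. The phosphatase Ptprc (CD45), present on all leukocytes, stood at 0.20 ± 0.09, the LCK inhibitor kinase Csk at -0.09 ± 0.09, the phosphatase Ptpn22 at 0.06 ± 0.12 and the inhibitory receptor Tigit at -0.26 ± 0.11. Ctla4 was too dim to test. At 7 h the members with the largest moderated t were Ubash3a at 0.15 ± 0.10 and Dgkz at -0.13 ± 0.08. Of 13 transcription factors 8 were higher at 25 h (41.3% of all genes), with a median of 0.03. Satb1, which organises chromatin in T cells, stood at 0.28 ± 0.12, Bcl11b, which keeps T cell identity, at 0.13 ± 0.09, and the regulators Gata3 and Foxp3 at 0.02 ± 0.10 and -0.02 ± 0.11. Tbx21, the T-bet gene of effector T cells and natural killer cells, stood at -0.23 ± 0.12. At 7 h Lef1 stood at -0.23 ± 0.10 and Tox at 0.14 ± 0.08.

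Among homing and cytokine receptors 4 of 10 were higher and 6 lower at 25 h, where 41.3% of all genes were higher. Il7r, the interleukin 7 receptor chain of naive and memory T cells, stood at 0.36 ± 0.18 and Ccr7, the lymph node homing receptor, at 0.13 ± 0.09. Il2rb, shared by effector T cells and natural killer cells, stood at -0.42 ± 0.19 and Cxcr3 at -0.26 ± 0.10. At 7 h Cxcr6 stood at 0.24 ± 0.14 and Ccr4 at 0.16 ± 0.13. None of the restraint, transcription factor or receptor genes passed limma after adjustment at either time.

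Natural killer and cytotoxic genes stood on the other side of 0 from Cd3g, Cd3d and Cd3e at 25 h. All 12 tested were lower in mepenzolate lungs, where 41.3% of all genes were higher. Of the 12, 10 were lower without overlap of the arrays (22.4% of all genes). An unadjusted limma p under 0.05 was reached by 7 of the 12 (2.47% of all genes), and 0 passed adjustment. Their median difference was -0.36. Gzma, the granzyme A gene, read 8.60 and 8.50 with vehicle against 7.91 and 7.77 with mepenzolate, a difference of -0.71 ± 0.18. Nkg7, a granule protein gene, stood at -0.34 ± 0.14, the natural killer receptor Ncr1 at -0.46 ± 0.22 and perforin, Prf1, at -0.39 ± 0.13. The summed linear signal of the 14 genes measured at 25 h lay at 2571 to 2724 with vehicle against 1753 to 2076 with mepenzolate, and at 1856 to 2535 and 2055 to 2111 at 7 h. Natural killer cells also use Cd247 and Zap70, which are not in this list, and the part of these cells in the values of those 2 genes was not tested. At 7 h the vehicle arrays differed from each other in this list, at -0.18 and 0.18 relative to the mean of all arrays.

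**Figure D4:**
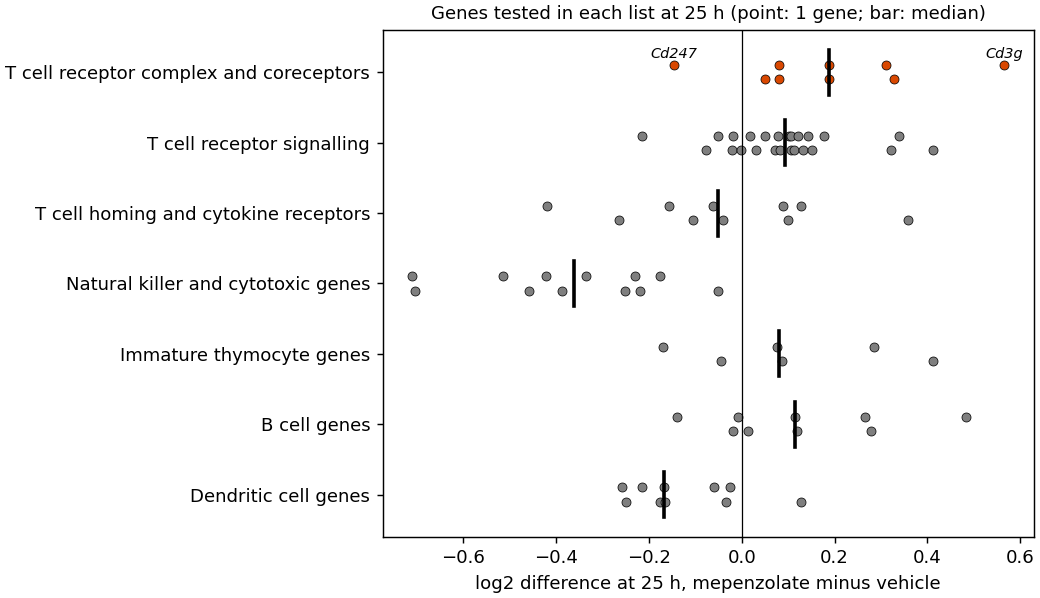
Log2 difference at 25 h, mepenzolate minus vehicle, of each gene tested in 7 lists (1 point per gene, black bar the median). All but Cd247 of the receptor complex and coreceptor list (orange) lie right of 0, and all 12 natural killer and cytotoxic genes lie left of it.

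Other cells that carry these genes were checked by their markers. Of the defining genes of immature thymocytes, Rag1 (5.15 to 5.55), Rag2 (3.53 to 3.85) and Dntt (4.79 to 4.97) were below the filter level of 5.93 on all 8 arrays. At 25 h they stood at -0.25 ± 0.12, -0.22 ± 0.12 and -0.11 ± 0.09, and the pre-receptor chain gene Ptcra at -0.17 ± 0.12. The 6 thymocyte list genes bright enough to test had a median of 0.08. Themis and Satb1, which mature T cells express too, led among them. Any part of immature thymocytes in the values of the T cell genes was not tested. The summed signal of the 10 measured genes of that list at 25 h was 908 to 961 with vehicle against 987 to 1032 with mepenzolate, and 931 to 935 and 884 to 901 at 7 h. Of 10 dendritic cell genes 9 were lower and 1 higher at 25 h, where 41.3% of all genes were higher. Their median was -0.17, and 0 passed limma after adjustment (0% of all genes). Summed signals of dendritic cell genes were 2423 to 2548 after vehicle and 2186 to 2345 after mepenzolate. Their part in the values of Cd4 and Cd8a was not tested.

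B cell genes also stood higher at 25 h than at 7 h. All 9 tested were higher at 25 h than at 7 h over both treatments (50.7% of all genes), with a median of 0.56. An unadjusted limma p under 0.05 was reached by 8 of them (4.03% of all genes), and 0 passed adjustment (0.221% of all genes). Gaps between replicates were wide. The immunoglobulin receptor subunit Cd79a read 8.81 and 9.57 in vehicle lungs at 25 h, and Ms4a1, which encodes CD20, 8.05 and 9.00. In mepenzolate lungs at 25 h these genes read 8.95 and 9.14, and 8.60 and 9.01. The summed B cell signal at 25 h was 2403 to 3980 with vehicle against 3007 to 3600 with mepenzolate, and 1950 to 2535 and 2075 to 2211 at 7 h. Their part in the time difference of the T cell genes was not tested.

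**Figure D5:**
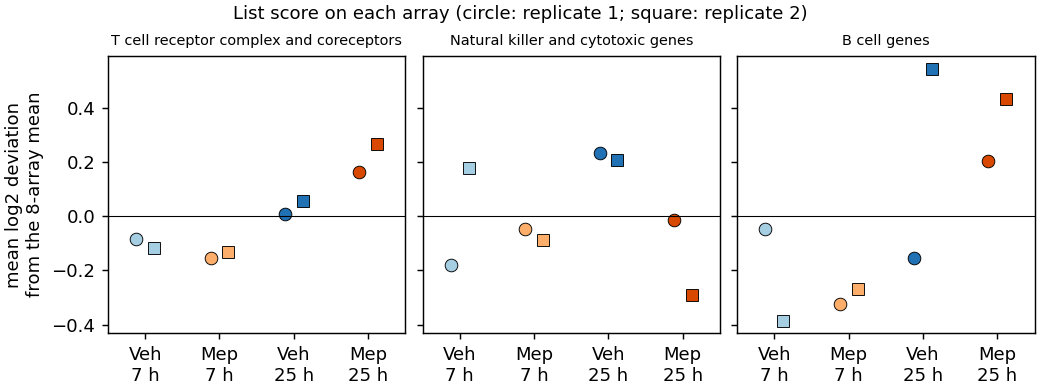
Mean log2 deviation from the mean of the 8 arrays, for the genes tested in 3 lists, on each array (circle, replicate 1; square, replicate 2). In the receptor complex and coreceptor list, mepenzolate lungs at 25 h stand at 0.16 and 0.26, and vehicle lungs at 0.01 and 0.05. B cell genes of the vehicle lungs at 25 h stand at -0.15 and 0.54.

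Genes outside the list that followed Cd3g most closely over the 8 arrays were Ms4a6b (Pearson r = 0.97), Arhgap15 (0.96), Sh3bgrl2 (0.96), Dgka (0.94), Bcap29 (0.94) and Gstm2 (0.94), among the 14953 tested. The mean level of the 9 genes was followed most closely by S100a4 (0.99), Arhgap15 (0.98), Arhgap45 (0.97), Ahcyl2 (0.97), Cd53 (0.97) and Skap1 (0.96). Arhgap15 stood in both sets. It read 7.33 on both vehicle arrays and 7.63 and 7.84 on the mepenzolate arrays at 25 h. These correlations describe likeness over 8 arrays that share treatments and times and carry no test, since the genes were picked for being the most alike.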

How the data were processed

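Per the labels, total lung RNA was hybridised to 1-colour Affymetrix mouse gene arrays. The values deposited by the authors are log2 expression levels made with RMA, per the submitters' processing notes. Its version is not given in the sources used here, and the method narrows differences of dim genes. The 34760 probes ran from 2.00 to 13.98, with array medians of 6.70 to 6.77. Precision is limited by the number of arrays. The platform annotation gave 1 symbol to 21640 probes and several to 1321, and 11799 probes were unnamed here. By RefSeq, 21553 of the first class matched by Entrez identifier and 0 symbols changed. The brightest probe per gene by mean over the 8 arrays was used.

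Groups came from the titles. Genes at or above the 25th percentile entered a limma fit (version 3.58.1, R 4.3.3) with 1 mean per group over all 8 arrays (4 residual and 4.09 prior degrees of freedom). P-values were Benjamini-Hochberg adjusted over the whole set of tested genes and called under 0.05. The comparisons share arrays. Exact permutation tests were not used, since 2 arrays against 2 cannot give a p below 0.333. Alternatives were no filter, a filter at the 50th percentile, array weights, quantile normalization, a mean over each gene's probes, robust estimation with an intensity trend, median centring, the compared groups only, a replicate block and each array left out. The time difference within each treatment was added after seeing the data. The members and lists were chosen with earlier results of these data known, and the promoter motifs after the values were seen. There were 10 lists with 140 entries, of which 130 matched. A few genes fixed by name are not reported here. All members are named, companion genes were fixed by name or by the 2 largest moderated t per list and time for the 4 T cell companion lists, and look-alike genes by the 6 highest correlations. Albumin, lactoferrin, H2-Ea and the clock genes were named after their values were seen, as were genes in counts of 5 or fewer.

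In a simulation of mepenzolate against vehicle at 25 h with 14953 genes, limma found 64% of genes altered by log2 0.5. It found 96% at a size of 1 and 100% at a size of 2, and 12 of its 192 calls had not been altered. The same simulated set held 50 genes altered by 2 and 50 by 3, which eases the Benjamini-Hochberg cutoff for smaller changes. On the real arrays no gene passed at 25 h, and Cd3g at 0.57 had a limma adjusted p = 0.979. The 64% is therefore not the share of such changes that these arrays would show.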

Additional observations from a re-analysis of the deposited data

How the results depend on the processing

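No member passed at 25 h, at 7 h or in the interaction under any alternative. The 0 genes called at 25 h became 1 with a replicate block (Snord73b, 0.97), and 0 to 1 with arrays left out (Gdpd3, -3.13, without the second vehicle array at 25 h). Leaving arrays out gave 0 to 2 genes at 7 h and 0 to 2 in the interaction (Alb and Bpifa1, or Atrn, without one or the other mepenzolate array at 7 h, and Gdpd3). Over both treatments the time comparison called 33 genes, 72 with the stricter filter, 123 with trend and robust estimation, 73 with the replicate block, 13 in vehicle lungs only, 4 in mepenzolate lungs only (Arntl, Per2, Tef and Tspan4) and 11 to 34 with an array left out. The fewest came without the second vehicle array at 7 h, and 12 to 14 without the second mepenzolate or vehicle array at 25 h or the first vehicle array at 7 h, with 21 without the second mepenzolate array at 7 h. The replicate block changed no call of a member. Same-numbered arrays deviated together in the 3 pairs among vehicle 7 h, mepenzolate 7 h and mepenzolate 25 h (r from 0.19 to 0.40) and not in the 3 pairs with vehicle 25 h (r from -0.02 to 0.03). With not every pair above 0.1 and no shared source in the labels, the numbers were not taken as pairing the samples.

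In the interaction Zap70 turned to 0.021 with quantile normalization and 0.0019 with median centring, and Thy1 to 0.0055 with median centring. In vehicle lungs only, the time difference of Cd3d was -0.059 and that of Cd4 -0.027. With an array left out, signs turned at 25 h for Cd8a (-0.055 to 0.21), Zap70 (-0.11 to 0.28) and Thy1 (-0.021 to 0.12), at 7 h for Cd247 (-0.26 to 0.097), Cd8a (-0.26 to 0.015) and Cd8b1 (-0.13 to 0.39), in the interaction for Cd247 (-0.24 to 0.11), Cd8b1 (-0.057 to 0.46), Zap70 (-0.23 to 0.16) and Thy1 (-0.098 to 0.042), and over time for Zap70 (-0.040 to 0.15). The causes were not tested.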
